A study of Sus scrofa with 2 samples.

Results

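Early proximal tubule nuclei were picked out of single-nucleus RNA sequencing data of pig renal cortex, and 2561 of 12955 nuclei belonged to them. They were chosen by their counts of UMIs, the molecular tags by which single RNA molecules are told apart. Of the barcodes with 500 to 6000 detected genes, those kept had at least 30 UMIs of the endocytic receptor genes LRP2 and CUBN per 10000 UMIs. They had fewer than 5 UMIs per 10000 of POU2F3, SLC5A8, NRG3 and BRINP1, genes of another CUBN-rich group of nuclei. They also had more UMIs of SLC7A8, SLC5A12 and SLC2A2 than of ADCY8, SLC22A2 and SLC16A9. Nuclei with the opposite order of these 6 segment genes are called later proximal tubule here, and numbered 1097. A further 95 nuclei had equal UMIs of both trios and belonged to neither. Because the nuclei were selected on measured values, the levels of these 12 genes, and the differences between early and later nuclei, are descriptions.

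The study compared pig kidneys before and after ex vivo perfusion. The organs came from a slaughterhouse, were flushed and kept cold, and cortex was taken before (unperfused) or after (perfused) warm perfusion under pressure with a salt solution free of albumin and red cells, then frozen. There was 1 library of each condition, and it is not given in the sources used here whether 1 animal gave both pieces of tissue. Perfusion, time, warmth and pressure therefore cannot be told apart from one another, nor from the animal, the piece of tissue or the library. With 1 library per condition no test between conditions was possible. Every interval given is an exact 95% interval for counting error and says nothing of the spread between kidneys.

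The unperfused library held 34415254 UMIs in 7179 barcodes and the perfused library 35525592 UMIs in 6205 barcodes. After the limits on genes, 7035 and 5920 barcodes were left. The 2 libraries shared 14 barcode sequences, and no barcode was an early proximal tubule nucleus in both.

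The proximal tubule takes back most of what the glomerulus filters. Its first part, the convoluted segments, carries glucose, amino acids, phosphate and bicarbonate across a tall brush border and takes up filtered protein through megalin (LRP2) and cubilin (CUBN). The straight part that follows secretes organic cations and other drugs and recovers the remaining solutes with carriers of higher affinity. Creatine precursor synthesis by GATM, and uptake of lactate by SLC5A12, are known features of the early part.

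The label of the nuclei was checked against 7 marker genes, 5 of which the rule had used. Levels are given as UMIs per 1000000 UMIs of the same nuclei (CPM). SLC5A12, a sodium-coupled lactate carrier, was at 2296 CPM in unperfused and 2174 CPM in perfused early nuclei, against 783 and 605 CPM in later nuclei. SLC7A8, a basolateral exchanger of neutral amino acids, was at 2019 and 2425 CPM against 336 and 306 CPM. SLC2A2, the basolateral glucose carrier GLUT2, was at 620.2 and 597.8 CPM against 280.3 and 239.7 CPM. All 3 were thus higher in early nuclei in both libraries, which the rule itself brings about. LRP2 was at 3256 and 3350 CPM in early and 3208 and 3340 CPM in later nuclei, so it did not separate them. CUBN was slightly lower in early nuclei, at 4627 and 5036 CPM against 4839 and 5465 CPM.

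GATM and STRA6, the markers that the rule had not used, followed the same order. GATM, the first enzyme of creatine synthesis, was at 885 CPM in unperfused and 591 CPM in perfused early nuclei, and at 328 and 183 CPM in later nuclei. STRA6, the cell surface receptor for retinol bound to its plasma carrier, was at 249 and 247 CPM in early and 59.3 and 58.3 CPM in later nuclei. Early nuclei exceeded later nuclei in both libraries and for both genes, by a log2 ratio of 1.43 (1.34 to 1.52) and 1.69 (1.57 to 1.82) for GATM, and of 2.07 and 2.08 for STRA6. SLC5A2, the low-affinity glucose carrier SGLT2 of the early tubule, differed less, with 128 and 99.99 CPM in early and 91.6 and 71.8 CPM in later nuclei. The list of later proximal tubule markers gave no such order. Of its 8 measured genes, 3 were at least 2-fold lower in early nuclei of both libraries, and these were ADCY8, SLC22A2 and SLC16A9 of the rule. The 5 measured genes that the rule had not used, SLC22A8, SLC22A6, SLC7A13, SLC13A3 and ACSM3, were all higher in early nuclei in both libraries, with a median log2 ratio of 0.28 and 0.43. The label thus held for GATM and STRA6 and not for these 5 genes, and the name stands here for the nuclei that the rule picked.

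**Figure D1:**
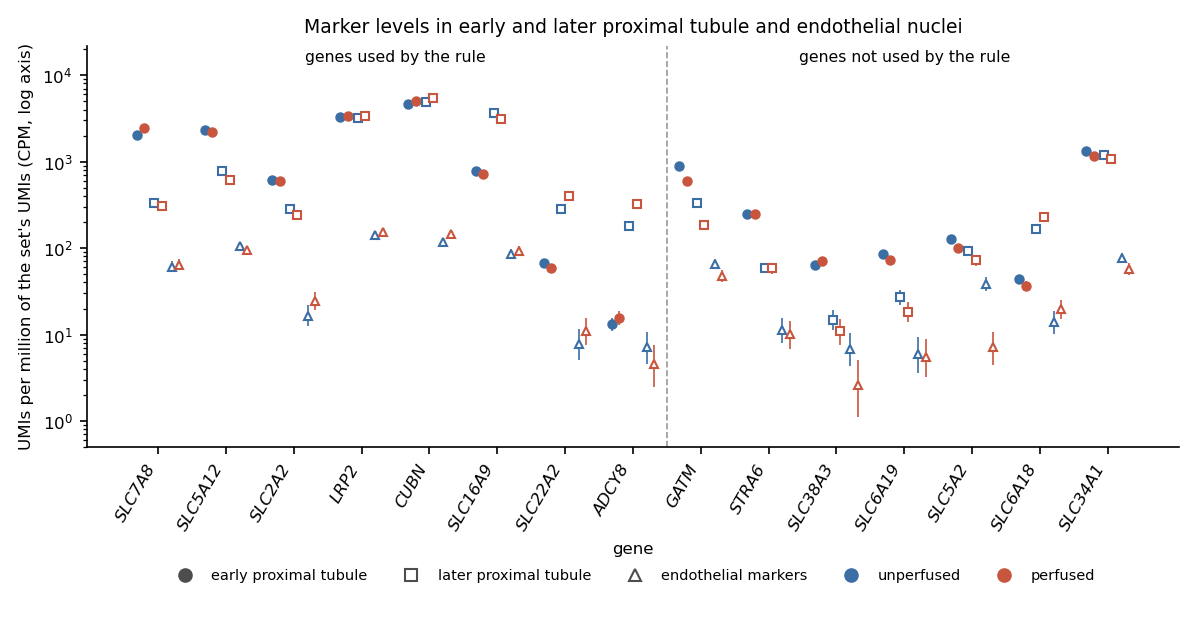
Levels of 15 genes in early (filled circles) and later (open squares) proximal tubule nuclei and in nuclei with endothelial markers (open triangles), in CPM of the set on a log axis, with exact 95% Poisson intervals; blue marks the unperfused and red the perfused library. Left of the dashed line are genes that chose the nuclei, and right of it GATM, STRA6, SLC38A3 and SLC6A19 lie higher in early than in later nuclei, SLC6A18 lies lower, and SLC34A1 lies close in both.

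The share of nuclei with at least 1 UMI was set against that in later nuclei and in nuclei with endothelial markers, which had at least 20 UMIs of these markers per 10000, fewer than 20 of the thick ascending limb markers and fewer than 30 of LRP2 and CUBN. The unperfused library had 1400 of them and the perfused one 1060. GATM was seen in 90.4% of unperfused and 86.4% of perfused early nuclei, 67.3% and 48.9% of later nuclei, and 13.5% and 11.13% of nuclei with endothelial markers, a cell type that should lack it. Endothelial nuclei were shallower, with a median of 1934 and 2293 UMIs against 5923 and 7510 in early nuclei. With every nucleus thinned to 2000 UMIs, which left out 63 unperfused and 60 perfused early nuclei, 30 and 52 later nuclei, and 747 and 387 endothelial nuclei, the shares for GATM were 72.6% and 61.5% in early, 41.5% and 27.4% in later and 10.1% and 7.499% in endothelial nuclei. STRA6 was seen in 36.6% and 37.1% of thinned early nuclei, 9.55% and 8.66% of thinned later nuclei, and 1.97% and 1.40% of thinned endothelial nuclei. At the same depth both genes were thus seen most often in early and least often in endothelial nuclei, with later nuclei between them.

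Marker genes of other cell types also had UMIs in the early nuclei. UMOD, the most typical transcript of the thick ascending limb, had a UMI in 41.0% of unperfused and 45.8% of perfused early nuclei, or 18.9% and 20.2% when thinned. In thinned endothelial nuclei these shares were higher, at 30.1% and 36.3%. The 6 thick ascending limb markers summed to 809 CPM in unperfused and 931 CPM in perfused early nuclei, against 2705 and 4078 CPM over the whole libraries, with EGF and SLC12A1 as the most abundant. The 8 stromal markers summed to 149.8 and 198 CPM (307 and 618 CPM over the libraries, MEIS1 the most abundant, at 80.8 and 96.7 CPM against 78.2 and 119 CPM), the 8 immune markers to 131 and 154 CPM (286 and 532 CPM, CD74) and the 8 endothelial markers to 283 and 244 CPM (1123 and 1065 CPM, PECAM1). The 6 markers of the distal convoluted and connecting tubule summed to 621 and 501 CPM (1792 and 1404 CPM over the libraries). Of these TRPM6 held 363 and 367 CPM, more than its 182 and 153 CPM over the whole libraries, while each list's sum was lower in early nuclei than over the libraries. No marker of these lists was at 0 in the early nuclei of either library. Alternatives described below left out nuclei that held UMIs of other lineages, or subtracted an approximated share of free RNA. Values under them are given with some of the results, among them the genes encoded in mitochondrial DNA and the MRTF-SRF and YAP targets. Whether the UMIs of these marker lists caused a change under such an alternative was not tested.

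The nuclei were not uniform. UMIs of the early trio numbered between 1 and 164 per unperfused nucleus, with a median of 27, and between 1 and 455 per perfused nucleus, with a median of 33. All 3 early genes were seen in 77.4% of unperfused and 78.9% of perfused nuclei, while 14.2% and 14.9% had no UMI of a later gene. At the border set by the lead, 166 unperfused and 109 perfused nuclei led by only 1 to 3 UMIs. There GATM was at 443 and 279.7 CPM, and in the 139 and 84 later nuclei just outside, behind by 1 to 3 UMIs, it was at 389 and 182 CPM. STRA6 was at 115 and 145 CPM inside and at 71.8 and 129 CPM outside. At this border both genes were higher inside than outside in both libraries, by less than between all early and all later nuclei. At the LRP2 and CUBN limit, GATM was at 451 CPM inside and 301 CPM outside in unperfused nuclei. In perfused nuclei it was lower inside, at 220 against 251 CPM. At the limit of the POU2F3 group it was at 818 and 234 CPM, but at 376 and 642 CPM in perfused nuclei. STRA6 was lower inside only in perfused nuclei at the LRP2 and CUBN limit, at 112 against 132 CPM. These limits had at most 30 nuclei per side in each library. The set is a range, bounded by the chosen lead.

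Sorting the nuclei by how much of their segment UMIs came from the early trio showed a graded order within the set. The 4 bins ran from 50 to 70%, 70 to 85%, 85 to 95% and 95 to 100%, with 300, 364, 438 and 449 unperfused and 166, 224, 300 and 320 perfused nuclei. Median depth was 5742, 5693, 6182 and 5981 UMIs in the unperfused bins and 7086, 7098, 8059 and 7394 UMIs in the perfused bins. GATM was at 617, 779, 959 and 1091 CPM across the unperfused bins and at 377, 558, 597 and 721 CPM across the perfused bins. STRA6 went from 193 to 282 CPM and from 146 to 286 CPM between the first and the last bin. SLC38A3, a sodium-coupled glutamine carrier, went from 37.7 to 75.7 CPM and from 47.3 to 88.8 CPM.

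Other genes ran the opposite way along the same bins. HPD, an enzyme of tyrosine breakdown, went from 28.9 to 2.84 CPM in unperfused and from 52.7 to 3.26 CPM in perfused nuclei. SLC6A18, a neutral amino acid carrier of the later tubule, went from 76.4 to 24.2 CPM and from 90.6 to 15.9 CPM. PCK1, the rate-limiting enzyme of glucose formation, went from 2060 to 1382 CPM and from 1989 to 1315 CPM. LRP2 and the phosphate carrier SLC34A1 stayed level, LRP2 between 3198 and 3334 CPM in unperfused and between 3233 and 3429 CPM in perfused nuclei. SLC5A2 was lowest in the first bin, at 108 and 86.0 CPM, and between 101 and 134 CPM in the others.

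**Figure D2:**
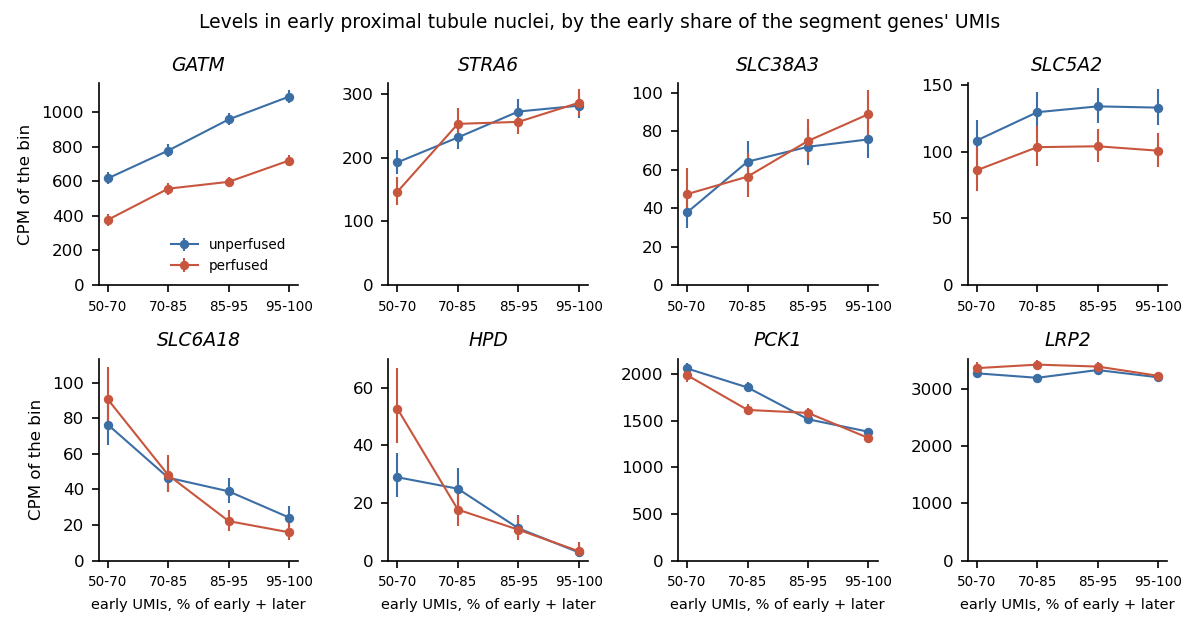
Levels of 8 genes outside the segment trios in 4 bins of early proximal tubule nuclei, ordered by the share of early UMIs among early and later UMIs (x axis, %); the y axis is CPM of the bin from 0, with exact 95% Poisson intervals, in blue for the unperfused and red for the perfused library. GATM, STRA6 and SLC38A3 go up along the bins in both libraries, SLC6A18, HPD and PCK1 go down, and LRP2 stays between 3198 and 3429 CPM.

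Against later proximal tubule nuclei, 155 of 9174 genes with at least 100 UMIs in each library were at least 2-fold higher in early nuclei in both libraries (1.69%), and 115 were at least 2-fold lower (1.25%). The rule chose both sets by genes of these same nuclei, so nothing is read from these counts. A symbol was given for 116 of the higher and 95 of the lower genes. The ratio lay further from 0 in the perfused library for 126 of the 155 higher genes, with a median log2 ratio of 1.38 in unperfused and 1.69 in perfused nuclei. It did so for 91 of the 115 lower genes, with medians of -1.52 and -1.77. The free RNA share of early nuclei was approximated by the level of SLC12A1, UMOD, FLT1 and PTPRB in these nuclei against the whole library. It came to 22.4% for unperfused and 18.6% for perfused nuclei. Free RNA itself was not measured, since the whole library includes the early nuclei. Doublets were kept, and the UMIs they bring were not told apart from free RNA. Results with free RNA subtracted rest on this approximation. Whether free RNA had a part in the larger ratios of the perfused library was not tested.

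Among the 15 genes that most favoured early nuclei outside the rule were several for signalling and adhesion. PRKG2, the membrane-bound cGMP-dependent protein kinase, was at 28.8 and 31.8 CPM in early against 4.77 and 4.08 CPM in later nuclei. DCLK2, a microtubule-associated kinase, was at 321 and 389.6 CPM against 65.7 and 62.7 CPM. SDK1 and LRRC4C, both adhesion molecules known from synapses, had log2 ratios of 2.18 and 2.42 in unperfused and of 2.43 and 2.87 in perfused nuclei. TBX2, a transcription factor of the T-box family, was at 39.3 and 36.7 CPM against 8.43 and 6.90 CPM.

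Carriers of small molecules made up another part of this group. SLC38A3 was at 64.3 and 70.6 CPM in early against 14.9 and 10.98 CPM in later nuclei. SLC16A1, the monocarboxylate carrier MCT1, was at 112 and 101 CPM against 31.5 and 20.7 CPM. TTR, which carries thyroxine and the retinol-binding protein in plasma, was at 61.3 and 82.2 CPM against 12.9 and 13.2 CPM, beside the retinol receptor gene STRA6 described above. MT1A, a metal-binding metallothionein with close paralogs whose reads may be split, had a log2 ratio of 2.82 in unperfused and 2.30 in perfused nuclei. CMYA5, C16orf89, VASH1, SEMA5B and ANTXR2 completed the 15, with log2 ratios from 1.86 to 3.31 over both libraries.

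The 15 genes that most favoured later nuclei held enzymes and signalling genes of other kinds. NCALD, a neuronal calcium sensor, was at 292 and 338 CPM in early against 1386 and 2325 CPM in later nuclei. YTHDC2, an RNA helicase that reads methylated RNA, was at 305 and 248 CPM against 1095 and 1412 CPM. CDH8, a cadherin, had the lowest log2 ratio of this group in both libraries, -3.10 and -3.56. HPD was at 15.7 and 16.6 CPM against 67.4 and 122 CPM. PRKAR2B, a regulatory subunit of protein kinase A, was at 9.48 and 11.6 CPM against 52.2 and 62.4 CPM, and CYP2A19, a cytochrome P450 with close relatives, at 9.29 and 9.67 CPM against 53.6 and 88.5 CPM. The others, SLC23A3, TMEM252, PTK2B, LTBP1, KCTD8, NKAIN3, LRIG1, SLC6A18 and PGC, had log2 ratios from -1.84 to -2.81.

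**Figure D3:**
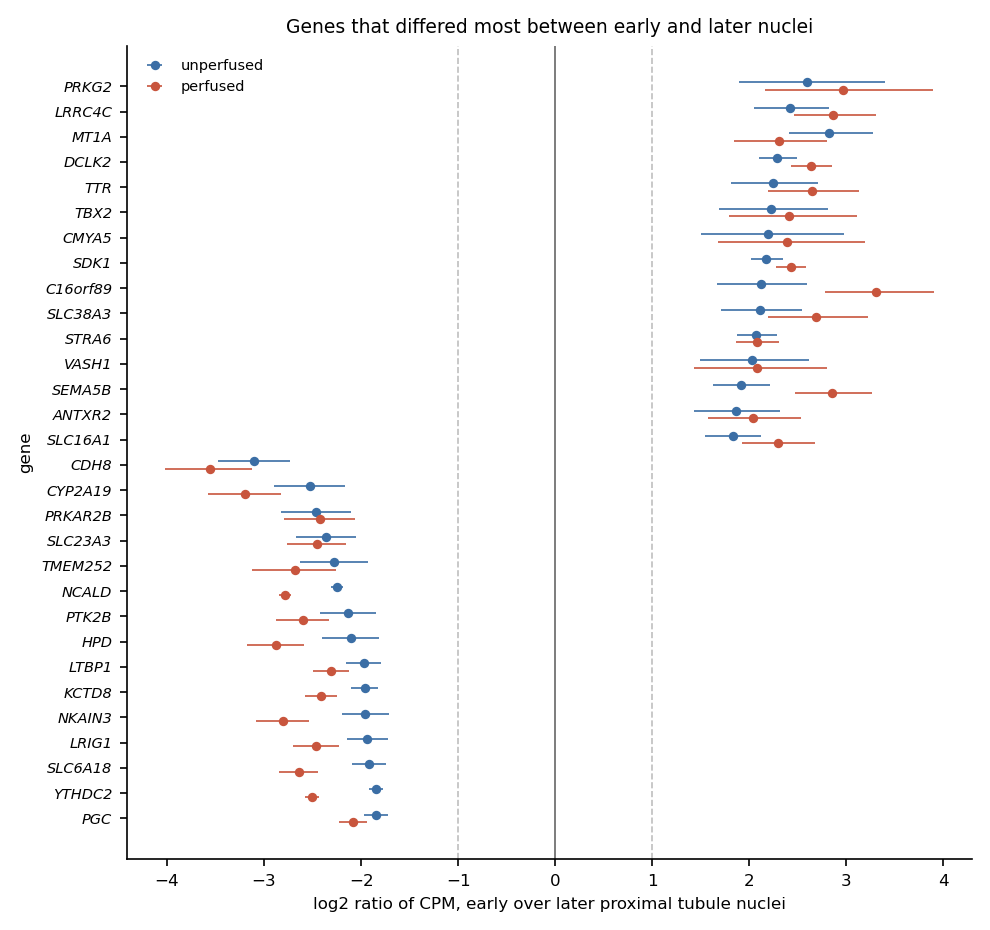
The 30 named genes that differed most between early and later proximal tubule nuclei, with the log2 ratio of CPM early over later on the x axis and exact 95% intervals for counting error, in blue for the unperfused and red for the perfused library; dashed lines mark 2-fold. All 30 lie beyond 2-fold the same way in both libraries, as their choice fixes, from PRKG2 and LRRC4C at the early end to CDH8 at the later end.

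For lists of genes, early and later nuclei were compared at a minimum of 20 UMIs in each library. At this minimum 1.94% of 13616 genes were at least 2-fold higher in early nuclei of both libraries and 1.56% at least 2-fold lower, and again nothing is read from the counts of a list, since the rule used these nuclei. Of 16 measured amino acid and peptide carriers, 5 were at least 2-fold higher in early nuclei of both libraries and 1 was lower. The higher ones were SLC7A8 of the rule, SLC38A3, the apical neutral amino acid carrier SLC6A19 (85.5 and 73.7 CPM against 27.0 and 18.2 CPM), SLC7A7, the light chain of the basolateral exchanger of cationic amino acids (589.9 and 777 CPM against 250.0 and 251 CPM), and SLC43A2 (286 and 332 CPM against 122 and 117 CPM). The lower one was SLC6A18. SLC7A9, the light chain of the cystine carrier, had log2 ratios of 0.88 and 1.23, and its heavy chain SLC3A1 of -0.13 and -0.02.

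Of 14 measured carriers of sugar, phosphate and bicarbonate, SLC2A2 and SLC5A12 of the rule were at least 2-fold higher in early nuclei. SLC13A2, a carrier of citrate and other dicarboxylates, was at least 2-fold lower, at 57.5 and 55.4 CPM against 174 and 227 CPM. SLC4A4, the basolateral sodium bicarbonate cotransporter, had log2 ratios of 0.22 and 0.21, and SLC34A1 of 0.14 and 0.10. SLC5A1, the high-affinity glucose carrier of the late tubule, was at 135 and 156 CPM in early and 140.2 and 172 CPM in later nuclei, a difference within counting error in both libraries.

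Of 10 measured organic ion and drug carriers, 3 were at least 2-fold lower in early nuclei and none was higher. They were SLC22A2 of the rule, a basolateral carrier of organic cations, SLC47A1, the apical exchanger MATE1 that exports them (74.4 and 61.8 CPM against 245 and 309.6 CPM), and SLCO4C1 (44.6 and 39.2 CPM against 128 and 152 CPM). Among the later markers described above, SLC22A8, the organic anion carrier OAT3, was at 679 and 913 CPM in early and 559.8 and 677 CPM in later nuclei. SLC22A6, SLC7A13 and SLC13A3 had log2 ratios between 0.09 and 0.53, and ACSM3 of 0.73 and 0.59.

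None of 13 measured endocytosis genes, LRP2 and CUBN of the rule included, and none of 17 brush border and peptidase genes was 2-fold apart in both libraries. DAB2, the adaptor of megalin, was at 4011 and 4320 CPM in early and 3096 and 3374 CPM in later nuclei. MME, the peptidase neprilysin, had log2 ratios of 0.60 and 0.65, and ANPEP, aminopeptidase N, of -0.49 and -0.72.

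Of 20 measured genes of amino acid metabolism, HPD and OAT, ornithine aminotransferase, were at least 2-fold lower in early nuclei, and GATM was among those at least 2-fold higher. ASS1, of arginine synthesis, had log2 ratios of 0.84 and 0.91. Gluconeogenesis and fatty acid oxidation had no gene 2-fold apart in both libraries among 11 and 18 measured, although PCK1 had log2 ratios of -0.69 and -1.01. Of 12 measured genes of vitamin and hormone handling, STRA6 was higher, while AGTR1, the angiotensin receptor (27.2 and 13.8 CPM against 83.4 and 44.9 CPM), and CYP27B1, which activates vitamin D (6.87 and 5.14 CPM against 22.8 and 23.5 CPM), were lower. Of 15 transcription factors of the proximal tubule none was 2-fold apart in both libraries, the bile acid receptor NR1H4 coming closest with 0.81 and 1.23.

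Between the conditions, early nuclei were 1551 of 7035 in the unperfused library, or 22.0% (21.1 to 23.0%), and 1010 of 5920 in the perfused library, or 17.1% (16.1 to 18.0%). Later nuclei were 8.73% and 8.16%. The CUBN-rich nuclei that the rule set aside were 1.21% and 4.31%. Shares of nuclei depend on which nuclei were recovered, and the spread between kidneys is unknown. Doublets were kept in these shares. Scrublet called 221 of the 1551 and 139 of the 1010 early nuclei doublets, 14.2% and 13.8%, with a median depth of 9263 and 12873 UMIs.

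The early nuclei summed to 10334806 UMIs in the unperfused library and 8170941 in the perfused one. Of 10940 genes with at least 100 UMIs over both, 33 were at least 2-fold higher in the perfused library (0.302%) and 431 at least 2-fold lower (3.94%). The median log2 ratio of all these genes was -0.02. Of the lower genes, 267 had no symbol, and 65 were at least 4-fold lower. The share of genes at least 2-fold lower was 7.70% among genes with 100 to 300 UMIs and 1.11% among those with 3000 UMIs or more. The share of lower genes was thus smaller among abundant genes.

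**Figure D4:**
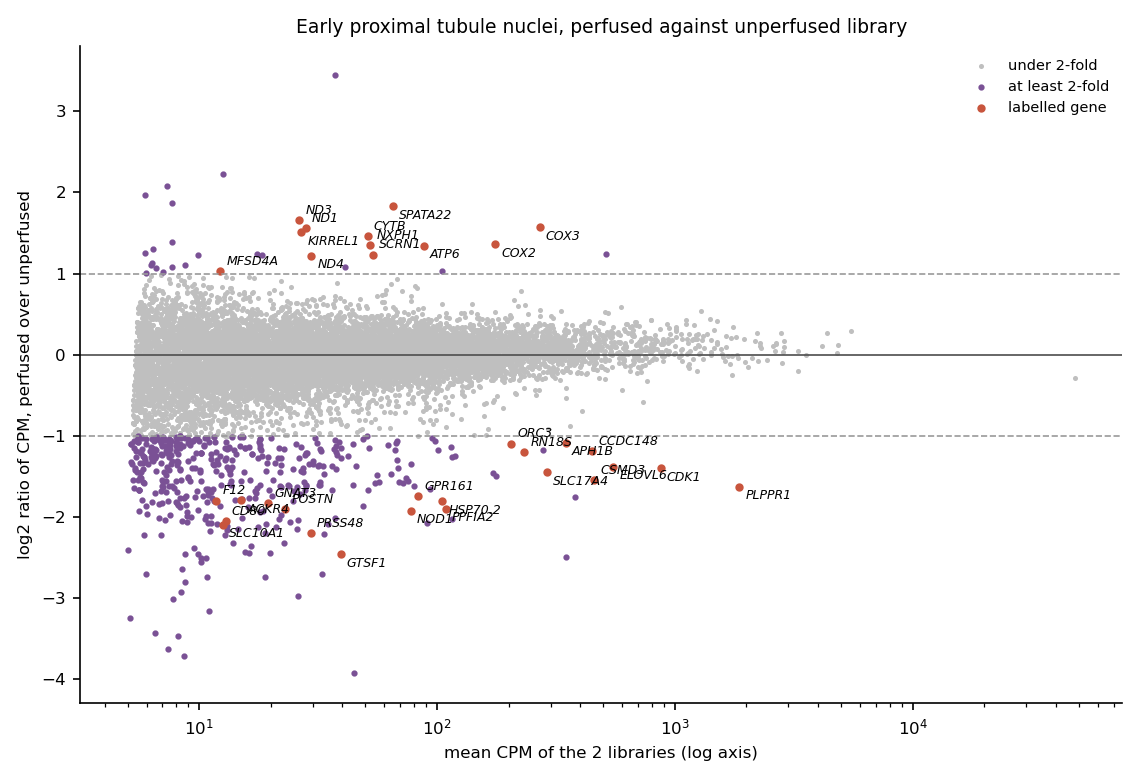
Log2 ratio of CPM, perfused over unperfused, against mean CPM (log axis) for the 10940 genes with at least 100 UMIs in early proximal tubule nuclei; dashed lines mark 2-fold. Gray points differ by under 2-fold, purple by more, and red points are the labelled genes; the 431 lower genes far outnumber the 33 higher ones, and PLPPR1, CDK1 and ELOVL6 stand out as abundant genes at the lower side.

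Of the 7 early markers, 5 chose the nuclei in each library, so that their levels are partly fixed by the choice and are given as a description. The ratio between the libraries, log2 of perfused over unperfused CPM, was -0.08 for SLC5A12, 0.26 for SLC7A8, -0.05 for SLC2A2, 0.04 for LRP2 and 0.12 for CUBN. Of the markers that the rule had not used, STRA6 had a ratio of -0.01 and GATM was lower in perfused nuclei, with 9144 UMIs in unperfused and 4829 UMIs in perfused nuclei, 885 and 591 CPM, and a log2 ratio of -0.58 (-0.63 to -0.53). In later nuclei GATM had a ratio of -0.84, and its ratio was below 0 in each of the 4 bins. None of the 7 markers reached 2-fold.

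For lists of genes between the conditions, a minimum of 20 UMIs over both libraries was used, at which 1.31% of 15429 genes were at least 2-fold higher and 8.57% at least 2-fold lower, with a median log2 ratio of -0.05. No gene was past 2-fold in either direction among 14 carriers of glucose, phosphate and bicarbonate (median -0.07), 16 of amino acids and peptides (median 0.11), 11 of organic ions and drugs (median 0.02), or 9 genes of the sodium pump, water channel and tight junctions (median 0.00). The first 3 lists held 4 genes of the rule, SLC5A12, SLC2A2, SLC7A8 and SLC22A2, and without them the medians over 12, 15 and 10 genes were -0.08, 0.10 and 0.05. SLC34A1 was at 1328 and 1153 CPM, a ratio of -0.20, and SLC4A4 at 2913 and 2715 CPM, a ratio of -0.10. SLC5A2 was at 128 and 99.99 CPM, a ratio of -0.35 (-0.48 to -0.22). SLC22A8, at 679 and 913 CPM, had a ratio of 0.43 (0.38 to 0.47), and SLC7A7, at 589.9 and 777 CPM, of 0.40. AQP1, the water channel, was at 56.9 and 37.3 CPM, a ratio of -0.61 (-0.81 to -0.41). This was the lowest ratio of the 4 lists.

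None of 13 endocytosis genes (median 0.06, the same without LRP2 and CUBN) and 17 brush border genes (median -0.05) was past 2-fold, and DAB2 was at 4011 and 4320 CPM. EHD1, which recycles endocytosed receptors, had the highest ratio of its list at 0.65, with 45.8 and 71.8 CPM. None of 11 genes of gluconeogenesis and fructose use (median 0.04), 18 of fatty acid oxidation (median -0.06) and 21 of amino acid metabolism (median -0.02) was past 2-fold. PCK1 was at 1668 and 1574 CPM, and ASS1 at 1294 and 1722 CPM, a ratio of 0.41. Of 13 genes of vitamin and hormone handling none was past 2-fold (median -0.08), but AGTR1 came close with 27.2 and 13.8 CPM, a ratio of -0.98 (-1.30 to -0.66). AGT, the angiotensin precursor, had 124 and 50 UMIs, a ratio of -0.97. Of 15 transcription factors none was past 2-fold (median 0.02). HNF4A, a master regulator of the proximal tubule, was at 479.8 and 428 CPM.

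Of the 12 named genes that were higher in perfused early nuclei, 7 were genes of oxidative phosphorylation encoded in mitochondrial DNA, and no other gene of that list was among the 33. At the lists' minimum these 7 of 13 measured genes stand beside 1.31% of all genes. The other genes of the 26 on the list matched no name in the annotation, so their UMIs are not counted here. COX3, a subunit of cytochrome c oxidase, had 1405 UMIs (136 CPM) in unperfused and 3299 UMIs (404 CPM) in perfused nuclei, a log2 ratio of 1.57 (1.48 to 1.66). COX2 was at 98.4 and 252 CPM, a ratio of 1.36, and CYTB, of the cytochrome bc1 complex, at 27.2 and 74.9 CPM, a ratio of 1.46. ND1, ND3 and ND4 of complex I and ATP6 of the ATP synthase had ratios of 1.56, 1.66, 1.22 and 1.34. ND6 lay on the other side, with 5.61 and 3.30 CPM and a ratio of -0.76. Of the 7 genes past 2-fold, only ND3 stayed past it under every alternative tried, with a lowest ratio of 1.16. The lowest ratios of COX3, ND1, CYTB, COX2, ATP6 and ND4 were 0.99, 0.95, 0.86, 0.85, 0.51 and 0.46.

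These genes together took 0.0570% of UMIs in unperfused and 0.133% in perfused early nuclei, and the 13 of them had a median log2 ratio of 1.22. Their UMIs were unevenly spread. The 10% of nuclei richest in them held 34.8% of them in unperfused and 53.3% in perfused tissue. A single unperfused nucleus and 33 perfused nuclei had over 1% mitochondrial UMIs, and without these the shares were 0.0567% and 0.0927% and the median log2 ratio was 0.52. Without nuclei that held UMIs of other lineages the median was 0.51, and with free RNA subtracted it was 1.33. The median ratio of the same genes was 0.64 in later nuclei, 0.87 in nuclei with thick ascending limb markers and 1.20 in nuclei with endothelial markers. Over all nuclei of each library the median mitochondrial share of a nucleus was 0.0736% and 0.116%. Over early nuclei this median was 0.0478% and 0.0717%. The 32 nuclear encoded genes of oxidative phosphorylation had no gene past 2-fold and a median of 0.02.

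The other named genes on the higher side were nuclear encoded. SPATA22, known for meiotic recombination, had 296 UMIs in 142 unperfused nuclei and 831 UMIs in 291 perfused nuclei, or 28.6 and 102 CPM, a ratio of 1.83 (1.64 to 2.02). Its ratio was 2.02 in later nuclei, 2.17 in nuclei with thick ascending limb markers and 0.55, on 41 and 58 UMIs, in nuclei with endothelial markers. KIRREL1, an adhesion protein of the slit diaphragm family, was at 13.9 and 39.7 CPM, a ratio of 1.51 (1.22 to 1.80), with 324 UMIs in 86 perfused nuclei. NXPH1, a secreted ligand of neurexins, was at 29.4 and 75.0 CPM and had a ratio of 1.35, against 0.31 in later nuclei. SCRN1 was at 32.0 and 75.3 CPM, a ratio of 1.23 (1.04 to 1.43), and MFSD4A, a transporter-like membrane protein, at 8.03 and 16.4 CPM, a ratio of 1.03. SPATA22, KIRREL1 and NXPH1 stayed past 2-fold under every alternative tried, while SCRN1 and MFSD4A fell short of it under some. Of these genes, the size moved most for KIRREL1, from 1.10 to 3.26, and for MFSD4A, from 0.64 to 2.69, both highest with free RNA subtracted.

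Among the 12 named genes on the lower side, NOD1, a cytosolic sensor of bacterial cell wall, had 1265 UMIs in 688 unperfused nuclei and 264 UMIs in 210 perfused nuclei, or 122 and 32.3 CPM, a ratio of -1.92 (-2.12 to -1.73). CD80, a ligand of T cell costimulation, was at 20.8 and 5.02 CPM, a ratio of -2.05, and ACKR4, a chemokine scavenger, at 23.3 and 6.73 CPM, a ratio of -1.79. HSP70.2, an inducible heat shock protein with near-identical copies whose reads may be split, was at 163 and 46.8 CPM, a ratio of -1.80 (-1.97 to -1.64). All 4 were lower in later nuclei too, by ratios between -2.82 and -1.82. In nuclei with thick ascending limb markers NOD1 had a ratio of -0.41, and CD80, ACKR4 and HSP70.2 had ratios between -1.51 and -1.33. In nuclei with endothelial markers the ratios were -0.02 for NOD1, -0.24 for CD80, -1.01 for ACKR4 and -0.92 for HSP70.2.

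Of the other 8, GTSF1, of the germline small RNA pathway, had the lowest ratio, with 687 UMIs in unperfused and 99 UMIs in perfused nuclei, or 66.5 and 12.1 CPM, a ratio of -2.46 (-2.77 to -2.15). PRSS48, a serine protease, was at 48.2 and 10.5 CPM, and SLC10A1, the sodium-coupled bile acid carrier of liver, at 20.4 and 4.77 CPM. PPFIA2, a scaffold protein of the liprin family, was at 172 and 46.0 CPM, and GPR161, a ciliary receptor that restrains hedgehog signalling, at 129 and 38.4 CPM. F12, coagulation factor XII, POSTN, a matrix protein, and GNAT3, the taste G protein gustducin, had ratios of -1.80, -1.90 and -1.83. Each of the 12 named lower genes kept its direction and 2-fold under every alternative tried. For all but CD80, PPFIA2 and F12 the size moved past the counting interval under at least 1 alternative. It reached -3.51 for HSP70.2 with free RNA subtracted and -3.41 for SLC10A1 without nuclei that held UMIs of other lineages. For ACKR4 it reached -2.41 with nuclei of 2000 to 8000 UMIs.

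Some abundant genes were among the lower ones and were picked out after their values were seen. Of 1263 genes with at least 3000 UMIs, 14 were at least 2-fold lower and 3 higher. The higher ones were COX2, COX3 and a gene model without a symbol, ENSSSCG00000018061. This gene model had 3143 UMIs in unperfused and 5874 UMIs in perfused nuclei, a ratio of 1.24. It was not on the list of mitochondrially encoded genes, and what it encodes was not tested. PLPPR1, a membrane protein of the phospholipid phosphatase-related family, had 29161 UMIs in unperfused and 7453 UMIs in perfused nuclei, or 2822 and 912 CPM, a ratio of -1.63 (-1.67 to -1.59). It was seen in 1476 of 1551 and 859 of 1010 nuclei, so it was not confined to a few of them, and the difference held in all 4 bins, from 2596 to 799 CPM in the first and from 2793 to 1076 CPM in the last. Its ratio was -1.72 in later nuclei, -0.94 in nuclei with thick ascending limb markers and -0.72 in nuclei with endothelial markers.

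ELOVL6, which lengthens fatty acids, was at 798 and 306 CPM, a ratio of -1.38 (-1.45 to -1.32), and SLC17A4, of the SLC17 family of anion carriers, at 424 and 156 CPM, a ratio of -1.45. CSMD3 was at 680.1 and 233 CPM, a ratio of -1.54, against -2.39 in later nuclei. CDK1, the kinase of mitotic entry, had 13066 and 3912 UMIs, or 1264 and 479 CPM, a ratio of -1.40 (-1.45 to -1.35). The 6 measured cycling markers that go with it summed to 13.9 and 14.4 CPM in the same nuclei, with TOP2A at 3.68 CPM in the unperfused library, so their summed level did not fall with that of CDK1. That sum rested on 144 and 118 UMIs, and single markers went both ways, 3 above and 3 below 0, from -0.86 to 1.08. CENPE, on 18 and 30 UMIs, was at least 2-fold higher, beside 1.31% of all genes at the lists' minimum. Whether the CDK1 gene model also takes reads of a copy or of a neighbouring transcript was not tested. CCDC148, APH1B and ORC3 had ratios of -1.19, -1.09 and -1.10, and RN18S, a ribosomal RNA gene model, of -1.20.

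Perfusion brought warmth and pressure after cold storage, and lists of stress genes were therefore examined. Of 17 measured immediate early genes, 2 were at least 2-fold lower and none higher, with a median of -0.28. They were NR4A1, an orphan nuclear receptor, at 8.90 and 4.41 CPM, and NR4A3 at 3.39 and 1.47 CPM. JUN was at 38.2 and 31.5 CPM, FOS at 7.64 and 5.26 CPM and EGR1 at 5.52 and 6.85 CPM. Against 8.57% of all genes at this minimum, 2 of 17 is near the background.

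The heat shock chaperones had a median of -0.20, and 2 of 19 measured genes were at least 2-fold lower, near the background of 8.57% of all genes. DNAJB1, a cochaperone induced by heat, had 738 and 263 UMIs, or 71.4 and 32.2 CPM, a ratio of -1.15 (-1.36 to -0.94). HSP70.2, described above with a ratio of -1.80, was not on this list. HSPA1L had only 18 and 6 UMIs, and its interval of -2.87 to 0.15 included 0. HSPA8, the constitutive Hsc70, was at 78.7 and 48.2 CPM, a ratio of -0.71 (-0.88 to -0.53), and HSPH1 at 50.03 and 33.3 CPM, while HSP90AA1 was at 99.4 and 109 CPM. In later nuclei DNAJB1 had a ratio of -1.498 and HSPA8 of -1.11.

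None of 24 measured hypoxia targets was past 2-fold, and 12 lay above and 12 below 0 (median 0.00, from -0.76 to 0.88). VEGFA was at 110.0 and 70.5 CPM, a ratio of -0.64 (-0.79 to -0.50), and NDRG1, which is induced by low oxygen, at 770.5 and 959.7 CPM, a ratio of 0.32. Of 17 measured genes of tubule injury and repair, 1 was past 2-fold, CDKN1A on 23 and 8 UMIs, and the ratios ran from -1.18 to 0.60 (median 0.02). A share of 1 in 17 is no more than the 8.57% of all genes that were lower at this minimum. VCAM1 was at 10.3 and 6.98 CPM, SPP1 at 7.55 and 8.44 CPM, and SOX9 and LCN2 were under the minimum. Of 13 NF-kB targets, IRF1 alone was at least 2-fold lower, at 8.61 and 3.79 CPM (median -0.25), which is near the same background. None of 16 NRF2 targets (median 0.01), 17 genes of the unfolded protein and integrated stress response (median -0.09), 15 glucocorticoid targets (median -0.22) and 17 clock genes (median 0.00) was past 2-fold.

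Targets of the actin-regulated factors MRTF and SRF, and of YAP, which respond to mechanical load, had medians of 0.24 over 22 and 0.23 over 14 measured genes. Of the 22 MRTF-SRF targets 3 were at least 2-fold higher, beside 1.31% of all genes at this minimum. They were ACTA2, smooth muscle actin, at 10.4 and 24.5 CPM, TAGLN at 3.48 and 8.32 CPM, and CNN2 at 1.06 and 2.33 CPM on 11 and 19 UMIs. The first 2 are markers of smooth muscle and stroma. The stromal markers, a list that itself includes ACTA2, summed to 149.8 and 198 CPM in the same nuclei. Whether stromal RNA had a part in these ratios was not tested. Both medians changed sign with the choice of nuclei or the handling of free RNA. Without nuclei that held UMIs of other lineages the median was -0.26 for MRTF-SRF and -0.06 for YAP targets, with free RNA subtracted it was -0.18 for MRTF-SRF targets, and with at least 50 UMIs of LRP2 and CUBN per 10000 it was -0.02 for YAP targets. MYH9, with more UMIs, was at 142 and 173 CPM, a ratio of 0.28, and VCL at 73.2 and 84.2 CPM. Among YAP targets, NUAK2 was at 46.4 and 88.7 CPM, a ratio of 0.93 (0.77 to 1.10), with 0.998 in later nuclei, while F3, tissue factor, was at least 2-fold lower at 4.93 and 1.84 CPM (beside 8.57% of all genes). CCN2, a target of both, was at 12.2 and 7.71 CPM.

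**Figure D5:**
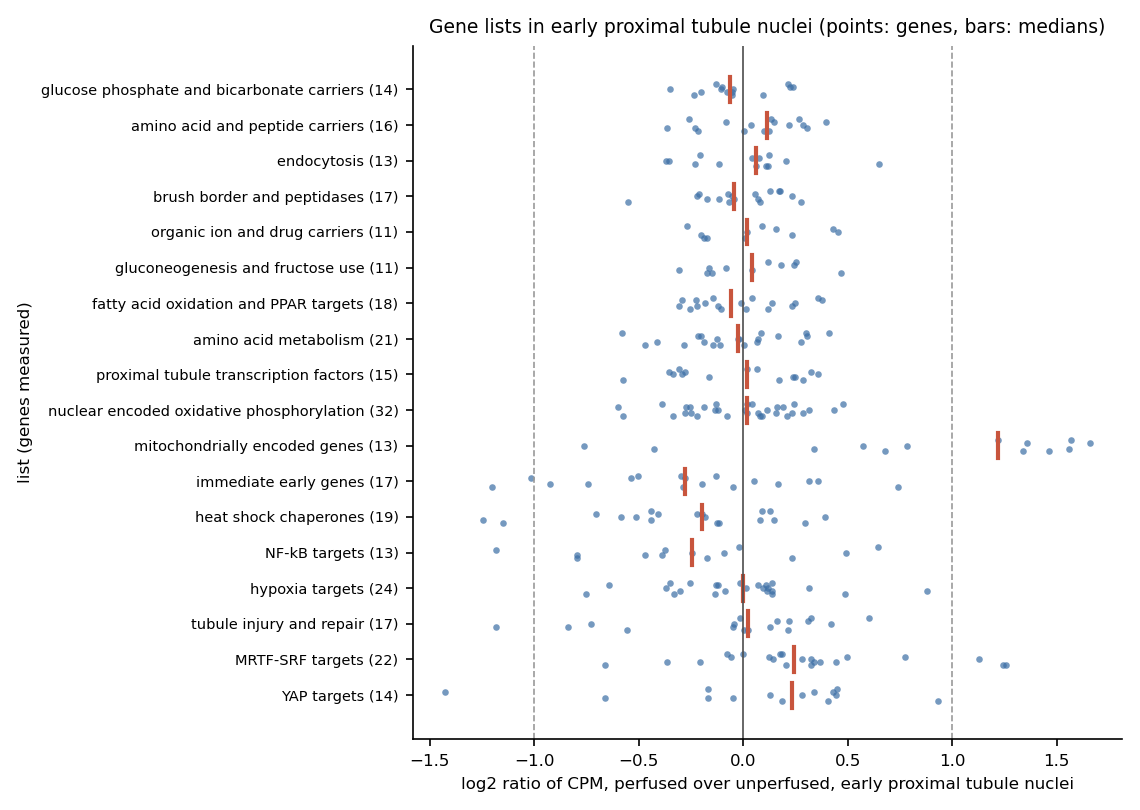
Log2 ratio of CPM, perfused over unperfused, in early proximal tubule nuclei for the measured genes of 18 lists (points; the number measured is in parentheses), with each list's median as a red bar; the 2 dashed lines mark 2-fold. The lists of carriers, endocytosis and metabolism cluster around 0 with no gene past 2-fold, while the mitochondrially encoded genes have a median of 1.22.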

How the data were processed

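The authors aligned the reads with Cell Ranger 5.0.1 to an Ensembl pig reference with introns included, and deposited raw UMI counts per gene and barcode. These counts still held barcodes outside the study's limits and were taken to precede its ambient RNA correction and doublet removal. The deposited lists of barcodes and gene names were used to label the counts. Symbols of 822 genes were added by matching identifiers, so that 17376 of 31908 genes had one.

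UMIs were summed over the nuclei of a set in each library and divided by the set's total to give CPM, as in the report. Poisson, binomial and conditional binomial 95% intervals were computed with scipy 1.17.1, and the ratio and interval code was tested on simulated data. A zero count was replaced by 3 in a ratio. A gene was called at 2-fold. Genes were compared at 100 UMIs or more and list genes at 20 or more, on the sum over libraries between conditions and in each library, summed over early and later nuclei, between segments. Shares of nuclei with a UMI were also given for nuclei thinned to 2000 UMIs. Nuclei are not replicates, and no p-value was computed. Doublets and nuclei rich in mitochondrial UMIs were kept, because the choice of nuclei sets no such limit, and left out as alternatives (Scrublet in scanpy 1.11.5). Other alternatives used TMM factors from edgeR 4.0.16 and size factors from DESeq2 1.42.0 on the summed counts.

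The named genes between conditions were, among those with a symbol, at least 200 UMIs, an interval without 0 and no nucleus holding over 10% of their UMIs, the 12 with the most extreme log2 ratio on either side. Between early and later nuclei they were the 15 with the largest ratio in the library where it was smaller. Markers and members of 36 lists were named where described. Values of some list members are not reported here. The nuclei, lists and rules were chosen with earlier results of these data known.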

Additional observations from a re-analysis of the deposited data

Results flagged for a closer look

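SCRN1 was singled out because its direction differed between neighbouring groups of nuclei. Perfused over unperfused, its log2 ratio was 1.23 in early nuclei, on 331 and 615 UMIs. In later nuclei the ratio was -0.58 (-1.11 to -0.07), on 87 and 52 UMIs. Both counting intervals excluded 0. The ratio was 1.06 in CUBN-rich nuclei, on 5 and 39 UMIs. It was 0.29 in nuclei with thick ascending limb markers and -0.41 in nuclei with endothelial markers. The difference between the groups was not tested, since each condition has 1 library.

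A signal was also present in barcodes that the limit on genes had left out. In the unperfused library 37 barcodes with over 6000 genes met the marker conditions of early nuclei, at a median of 26345 UMIs, and in the perfused library 19 did, at a median of 29010 UMIs. They entered no result, and whether they held more than 1 nucleus was not tested.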

How the results depend on the processing

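No paired analysis was possible because each condition has 1 library, and for the same reason no replicate could be left out. No result changed its direction past 2-fold under any alternative. The counts of genes past 2-fold depended on the minimum and on which nuclei were kept. Against 33 higher and 431 lower genes, a minimum of 30 UMIs gave 142 and 1034, and a minimum of 300 UMIs gave 17 and 162. The number of higher genes was 20 with at least 50 UMIs of LRP2 and CUBN per 10000, 56 with free RNA subtracted, 92 with nuclei weighted equally, and 20 without nuclei over 1% mitochondrial, an alternative chosen after seeing the data. Without nuclei that held a UMI of 7 genes of other lineages, 477 unperfused and 282 perfused nuclei were left, with 11 higher and 143 lower genes, as 6248 genes then met the minimum. The median of the mitochondrially encoded genes, 1.22, was 0.94, 1.55, 0.52 and 0.51 with the stricter receptor minimum, equal weights, the 1% limit and without other lineages. In the last setting the MRTF-SRF median was -0.26, and with nuclei of 2000 to 8000 UMIs the sodium pump list was at -0.073; the causes were not tested. The shares of early nuclei were 20.8% and 16.0% without doublets, 20.2% and 15.4% with the stricter receptor minimum, 16.4% and 13.0% with a 3-fold lead of early UMIs, and 6.78% and 4.76% without other lineages, each lower in the perfused library. The 3-fold lead gave 247 genes higher in early than in later nuclei, against 155. TMM scaling moved the median of all genes to 0.04. Of the 264 values of named genes under the alternatives, 210 moved by less than their counting interval, and none changed sign. Limits of 7% on mitochondrial UMIs left the early nuclei as they were.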

Other observations

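Of the sex-linked genes listed, the 3 that matched the annotation were under the minimum of 20 UMIs in early nuclei. Of 4 measured podocyte markers 3 were at least 2-fold lower in perfused early nuclei, beside 8.57% of all genes at the same minimum, with summed levels of 111 and 93.9 CPM, most of it from CLIC5 at 86.9 and 86.3 CPM. Of 8 stromal markers 3, ACTA2, COL3A1 and COL1A1, and of 7 measured immune markers 2, CD163 and CD3E, were at least 2-fold higher, beside 1.31% of all genes, and none was 2-fold lower. CD163 had 21 and 57 UMIs and CD3E 13 and 22 UMIs. Principal cell markers summed to 74.2 and 53.0 CPM and intercalated cell markers to 63.2 and 70.2 CPM. At least 2-fold lower were KLK1 and TRPV5 of 6 markers of the distal convoluted and connecting tubule, AQP3 of 6 principal cell markers, SLC26A4 of 5 measured intercalated cell markers and EHD3 of 8 endothelial markers, and none was 2-fold higher. SLC26A4 had 70 and 7 UMIs, a log2 ratio of -2.98 (-4.35 to -1.86), and the interval of EHD3, on 16 and 5 UMIs, included 0.

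SLC5A2 was also seen in nuclei with endothelial markers of the unperfused library, at 38.5 CPM on 123 UMIs, against 7.14 CPM on 22 UMIs in the perfused library. GATM in the same nuclei was at 65.5 and 48.0 CPM.

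A gene model without a symbol, ENSSSCG00000044834, had 6095 UMIs in unperfused and 853 UMIs in perfused early nuclei, a log2 ratio of -2.50. A single perfused nucleus held 89 of these 853 UMIs (10.4%), past the 10% limit used for the named genes. The ratio of this gene model was -2.56 in later nuclei, -2.44 in nuclei with thick ascending limb markers and -2.61 in nuclei with endothelial markers. It was picked out after its values were seen.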
